A study of Mus musculus with 40 samples.

Results

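RNA of whole mouse kidney was sequenced to compare tissue taken 6 h after ischaemia-reperfusion injury (IRI) with tissue of a group called Control. In this injury the blood supply of the kidney is stopped and then let back in. The comparison used 8 of the 40 libraries of the study, 4 of IRI 6 h and 4 of Control, which were picked by their column names in the table of the temporal arm, where both stood in the same joined block of columns. Both groups carried the genotype C57bl/6-wt. The treatment of the first was labelled IRI and that of the second NA, with no time, and Control was read here as kidney without surgery. The study followed the injury in order to choose a time for human mesenchymal stromal cells (MSCs). Its other libraries were IRI at 24, 48 and 72 h, a second injured group called AKI, injured kidneys given MSCs from bone marrow or umbilical cord, and a sham arm. A note shared by the IRI samples speaks of injecting MSCs at reperfusion, but no label of the IRI 6 h group names such cells. Age, sex, the length of ischaemia and the number of kidneys clamped are not given in the labels. No group was taken 6 h after an operation without ischaemia, so the operation and the ischaemia cannot be told apart in this comparison. The labels do not say that replicates came from separate animals, so a p-value here speaks for the spread among these libraries alone, and that spread may be technical.

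The proximal tubule reabsorbs most of what the glomerulus filters and lives on oxidative metabolism, and its last stretch, the S3 segment in the outer medulla, has a poor oxygen supply. When blood flow stops, tubule cells run out of ATP, lose their brush border and some die. After reflow, surviving tubule cells turn down transport genes and turn on injury and repair genes, the vessel wall becomes adhesive and prothrombotic, and neutrophils and then monocytes enter the tissue. Fewer cells of a type and less RNA per cell cannot be told apart in whole tissue.

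Levels are given in CPM, counts scaled to the same library total, after scaling for library composition, for libraries 1 to 4 of a group in that order, and ± is the standard error of a log2 fold change unless SD is written. Without the names left out, as given below, total counts were 14938484 to 16338711 in Control and 13313097 to 17533712 in IRI 6 h. With those names they were 18434633 to 20341209 in Control and 14998119 to 20079792 in IRI 6 h. The names left out thus took more counts in Control than in IRI 6 h. One library stood apart: across the 16653 genes tested, IRI 6 h library 1 correlated with the other 3 of its group at r = 0.957 to 0.965 on the log2 scale, while these correlated with each other at 0.991 to 0.992. It was the highest of the 4 for 71.4% of the genes called higher and the lowest for 78.6% of those called lower. Mitochondrial ribosomal RNA took 0.501% of its counts, 0.239% to 0.252% in the other 3 and 0.181% to 0.221% in Control. Control libraries 1 and 4 also differed from 2 and 3, in more than 1 kind of gene. They held RNA of adrenal steroid genes: Hsd3b1 read 82.3, 4.999, 1.18 and 70.4 CPM in Control and 0.601, 0.0531, 0.658 and 0.172 CPM in IRI 6 h. Summed mitosis genes (142, 79.9, 73.0 and 125 CPM in Control) split the same way. So did summed monocyte and recruited macrophage genes (1678, 1095, 1058 and 1622 CPM in Control). The part of these libraries in the results was not tested beyond the values given without them. A further 85 names were left out because their counts could not be trusted, most because the same Control libraries held other counts in 2 tables; the injury markers Havcr1, Lcn2 and Ccl2 and the proliferation marker Mki67 are among them.

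Of the 16653 genes tested, 3141 (18.9%) were called at an adjusted p under 0.05. At IRI 6 h 1724 (10.4%) were higher and 1417 (8.51%) were lower, and the median log2 fold change over all genes was -0.07. The 4 libraries of each group did not overlap for 47.2% of the genes tested. Of those called, 278 were at least 8-fold higher and 64 at least 8-fold lower. Without IRI 6 h library 1, 1280 genes rose and 1008 fell (7.47% and 5.88%, together 13.3% of 17145 tested). Without Control libraries 1 and 4, 1023 rose and 750 fell. A fit of these 8 libraries alone, without the later time points, called 48% of 15504 genes (3980 higher and 3463 lower). Counts of list members are read against 10.4% for rises and 8.51% for falls.

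**Figure D1:**
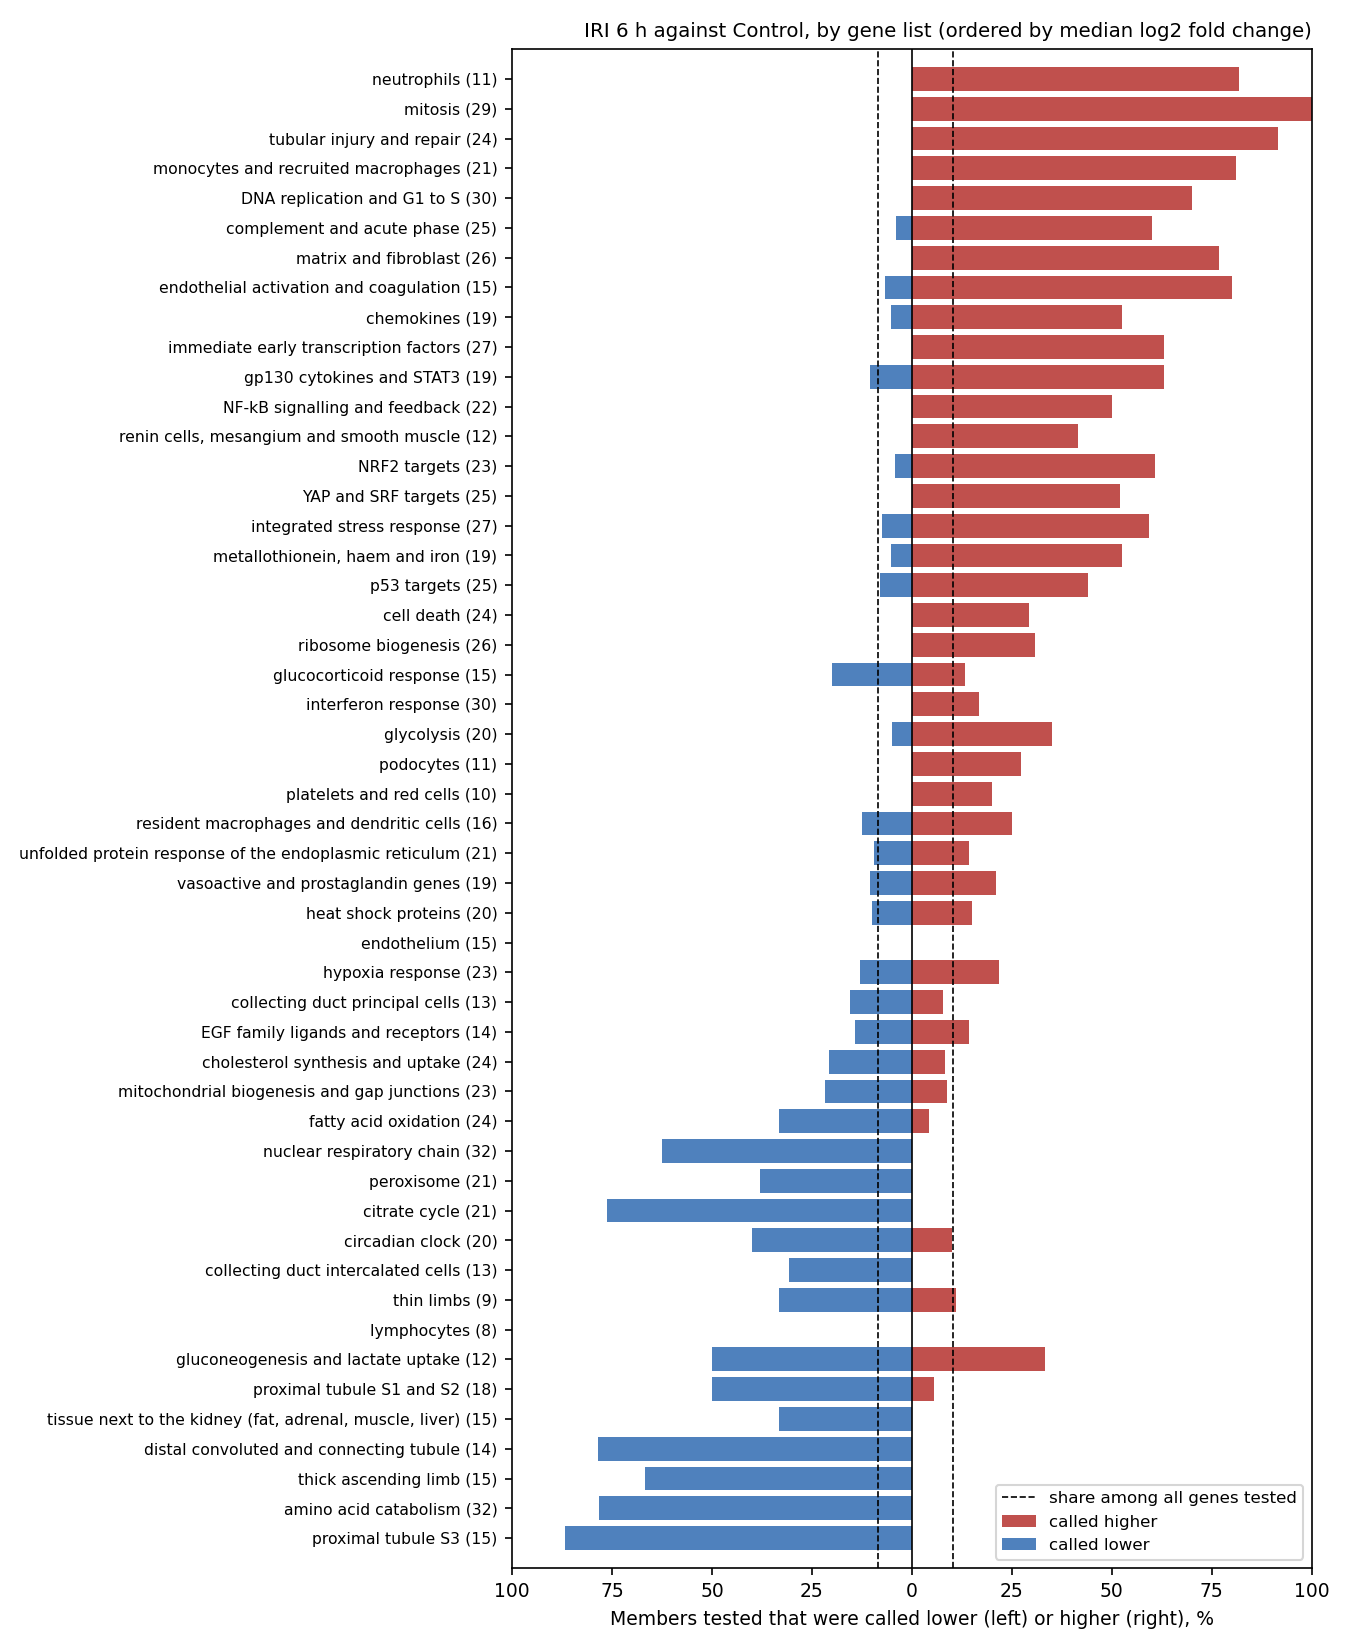
Share of tested members of each gene list called higher (right) and called lower (left) at IRI 6 h against Control, in percent of the members tested, with the number tested after each name. The dashed lines mark the shares among all 16653 genes tested, 10.4% higher and 8.51% lower. Mitosis reaches 29 of 29 members higher and the S3 list 13 of 15 members lower. Of these mitosis members 8 lay below the level of the low-count filter in at least 1 Control library.

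The nephron lost transport RNA along most of its length, and by the median of its list the S3 segment lost the most. In the S3 list 13 of 15 genes fell and none rose, with a median log2 fold change of -2.65. Slc22a7, an organic anion transporter, read 443, 543, 559 and 439 CPM in Control and 31.9, 14.7, 15.3 and 16.5 CPM in IRI 6 h, where library 1 was the highest of its group and still far below every Control library. Its log2 fold change was -4.66 ± 0.27, adjusted p = 8.2e-11, the largest fall by the rule for named genes, followed by the bile acid enzyme Cyp7b1 at -4.53 ± 0.33, adjusted p = 2.7e-09. The summed S3 level was 5938 to 6839 CPM in Control, 599 CPM in IRI 6 h library 1 and 1399 to 1645 CPM in the other 3. Slc7a12 (-0.47, adjusted p = 0.85) and Slc5a10 (-0.73, adjusted p = 0.13) were the 2 members not called. Several S3 genes differ between male and female mouse kidneys, and the sex of the animals is not given. Of 13 tested genes known to differ by sex in the kidney 10 fell and 1 rose (median -1.90), Slc22a7 and Cyp7b1 among those that fell. Y-linked RNA (Ddx3y, Eif2s3y, Kdm5d and Uty summed) was present in all 8 libraries, at 111 to 142 CPM in Control and 71.2 to 108 CPM in IRI 6 h.

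The earlier proximal segments, S1 and S2, lost less: 9 of 18 genes fell, 1 rose, and the median was -0.92. Slc34a1, the main sodium-phosphate transporter, read 4831, 5792, 6158 and 5068 CPM in Control and 689, 2099, 2535 and 2249 CPM in IRI 6 h, a log2 fold change of -1.53 ± 0.34, adjusted p = 0.0019. Library 1 held the least, the groups did not overlap, and the value without library 1 was -1.25. Its relative Slc34a3 was called with all libraries (-2.30 ± 0.76, adjusted p = 0.036), but it was not called without any 1 Control library or any 1 IRI 6 h library (adjusted p = 0.064 to 0.11; -2.03 without IRI 6 h library 1). The member that rose was Pck1, the enzyme that commits carbon to gluconeogenesis (0.65 ± 0.21, adjusted p = 0.034); it was not called without Control library 1, 2 or 4 or IRI 6 h library 3 or 4 (adjusted p = 0.082 to 0.13).

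In the thick ascending limb, which dilutes the urine, 10 of 15 genes fell and none rose (median -1.15). Egf, the growth factor this segment secretes, read 1094, 1125, 1379 and 1137 CPM in Control and 59.3, 112, 122 and 150.2 CPM in IRI 6 h (-3.41 ± 0.28, adjusted p = 1.6e-08). Slc12a1, the sodium-potassium-chloride cotransporter that loop diuretics block, read 1209, 1055, 1002 and 1225 CPM and 81.2, 277, 203 and 326 CPM (-2.34 ± 0.30, adjusted p = 5.3e-06). All 4 injured libraries lay below all 4 Control libraries for both, with library 1 lowest. Umod, the most abundant protein of urine, was called at a smaller size (-0.60 ± 0.20, adjusted p = 0.033) and was not called without Control library 2, 3 or 4 or IRI 6 h library 1, 2 or 3 (adjusted p = 0.058 to 0.11; -0.51 without IRI 6 h library 1).

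The distal convoluted and connecting tubule, which tunes sodium, calcium and magnesium, had 11 of 14 genes lower and none higher (median -1.02). Pvalb, a calcium buffer of the early distal tubule, read 25.8, 26.3, 25.8 and 22.3 CPM in Control and 1.43, 1.97, 2.85 and 3.55 CPM in IRI 6 h (-3.35 ± 0.81, adjusted p = 0.0051). Kl, the coreceptor for the phosphate hormone FGF23, read 779, 942, 1076 and 811 CPM and 116, 277, 336 and 319.5 CPM (-1.78 ± 0.28, adjusted p = 5.7e-05). Both groups of libraries were apart for each gene. The calcium carrier Calb1 fell by 1.86 on the log2 scale (SE 0.32, adjusted p = 0.00022), whereas the thiazide-sensitive transporter Slc12a3 was not called (-0.71 ± 0.39, adjusted p = 0.24); in the fit of these 8 libraries alone its adjusted p was 0.0039.

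Of 13 principal cell genes of the collecting duct, 2 fell and 1 rose (median -0.13), and the vasopressin-regulated water channel Aqp2 read 608, 593, 542 and 624 CPM in Control and 474, 502, 424 and 498 CPM in IRI 6 h (-0.32 ± 0.19, adjusted p = 0.28). The 2 that fell were other water channels, Aqp4 (-1.93 ± 0.24, adjusted p = 4.5e-06) and Aqp3 (-0.90 ± 0.23, adjusted p = 0.0061), and the sialyltransferase St6gal1 was called higher (0.88 ± 0.31, adjusted p = 0.050), though it was not called without any 1 Control library or IRI 6 h library 1, 2 or 4 (adjusted p = 0.064 to 0.23; 0.65 without IRI 6 h library 1). Aqp4 read 58.4, 50.8, 43.0 and 59.4 CPM in Control and 10.5, 16.8, 10.1 and 17.8 CPM in IRI 6 h. Of 13 intercalated cell genes, which handle acid and base, 4 fell and none rose (median -0.61; 3 fell without library 1, and 7 with the 2 groups alone in the fit), among them the bicarbonate exchangers Slc26a4 (-1.14 ± 0.32, adjusted p = 0.013) and Slc4a1 (-1.34 ± 0.38, adjusted p = 0.017), the latter not called without Control library 2 or 3 (adjusted p = 0.051 to 0.052). Of 9 thin limb genes 1 rose and 3 fell (median -0.65), or 1 and 5 without library 1 (median -0.88). The tight junction gene Cldn4 rose (2.69 ± 0.38, adjusted p = 2.0e-05, and 2.002 without library 1). Bcl6, a transcriptional repressor, was among those that fell (-2.59 ± 0.27, adjusted p = 3.1e-07).

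**Figure D2:**
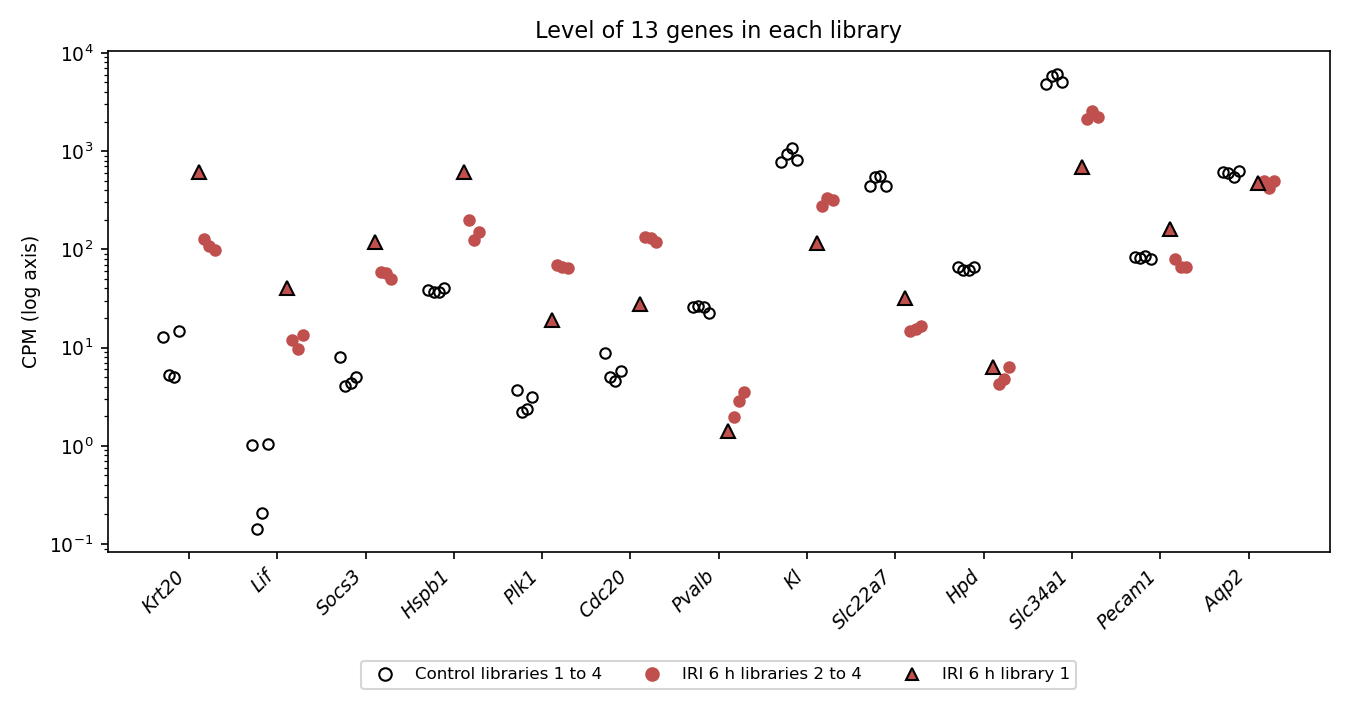
Level of 13 named genes in each library, in CPM on a log axis, with open circles for Control, filled circles for IRI 6 h libraries 2 to 4 and a triangle for IRI 6 h library 1. Library 1 is the highest for Krt20, Lif, Socs3 and Hspb1, the lowest injured library for Plk1, Cdc20, Pvalb, Kl and Slc34a1, and Pecam1 and Aqp2 stay near their Control levels in libraries 2 to 4.

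Metabolic genes fell in blocks of unequal depth. Amino acid catabolism, which in the kidney sits mainly in the proximal tubule, had 25 of 32 genes lower and none higher (median -1.20). Hpd, the tyrosine-degrading dioxygenase, read 66.6, 61.7, 62.1 and 66.4 CPM in Control and 6.38, 4.25, 4.82 and 6.35 CPM in IRI 6 h (-3.56 ± 0.46, adjusted p = 6.9e-06), with library 1 close to the others. Aadat of lysine and kynurenine breakdown (-3.02 ± 0.24, adjusted p = 1.1e-08) and Dmgdh of choline breakdown (-1.94 ± 0.29, adjusted p = 3.6e-05) followed.

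The citrate cycle had 16 of 21 genes lower and none higher, at a smaller size (median -0.55). Dld, the shared dehydrogenase subunit of the mitochondrial 2-oxoacid complexes, read 425, 428, 402 and 401 CPM in Control and 144, 119, 216 and 184 CPM in IRI 6 h (-1.32 ± 0.18, adjusted p = 1.7e-05). Cs, the enzyme of the entry step, read 328, 357, 388 and 349.6 CPM and 378, 346, 349 and 353 CPM (0.00 ± 0.12, adjusted p = 0.99), so its groups overlapped. Nuclear genes of the respiratory chain fell in 20 of 32 cases and rose in none (median -0.43), led by the complex I subunits Ndufs1 (-0.83 ± 0.17, adjusted p = 0.00099) and Ndufa1 (-0.83 ± 0.15, adjusted p = 0.00029). Without library 1, 13 citrate cycle and 15 respiratory chain genes were lower.

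Fatty acid oxidation, the main fuel route of the proximal tubule, had 8 of 24 genes lower and 1 higher (median -0.36). The medium-chain dehydrogenase Acadm read 1432, 1436, 1476 and 1368 CPM in Control and 225, 396, 453 and 491 CPM in IRI 6 h (-1.87 ± 0.20, adjusted p = 3.7e-07). Cpt1a, which brings long-chain fatty acids into mitochondria, was called without library 1 (-0.74, adjusted p = 0.0096) but not with it (-0.49, adjusted p = 0.11). Ppara, the nuclear receptor of the pathway, had -0.22 (adjusted p = 0.85).

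Gluconeogenesis split. Of 12 genes 6 fell, among them Slc5a8, a lactate transporter (-2.13 ± 0.34, adjusted p = 8.6e-05), G6pc (-1.45 ± 0.24, adjusted p = 0.00011) and Fbp1 (-1.28 ± 0.18, adjusted p = 2.6e-05), the last steps before free glucose, and 4 rose, led by Fbp2 (1.43 ± 0.32, adjusted p = 0.0026). Glycolysis had 7 of 20 genes higher and 1 lower (median 0.22). The lactate exporter Slc16a3 read 1.15, 1.55, 1.25 and 1.33 CPM in Control and 42.0, 13.9, 10.7 and 12.9 CPM in IRI 6 h (3.90 ± 0.66, adjusted p = 0.00016; 3.23 without library 1), and Hk2, an inducible hexokinase, rose by 2.21 ± 0.43, adjusted p = 0.00056. Ldha, lactate dehydrogenase, was not called (0.15 ± 0.11, adjusted p = 0.43). Gapdh was called higher, but it has near-identical copies among which reads can be split, and its level in the 4 injured libraries was 5.78, 3.08, 138 and 61.1 CPM, so it is uncertain (3.78; 2.63 without library 3).

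Peroxisome genes fell in 8 of 21 cases (5 without library 1) and rose in none (median -0.51), and the hydrogen-peroxide-degrading catalase Cat was among them (-0.81 ± 0.18, adjusted p = 0.0018). In cholesterol synthesis and uptake 5 of 24 fell and 2 rose. Cyp51, the sterol demethylase, fell from 393, 432, 461 and 373 CPM to 47.1, 91.5, 109 and 109 CPM (-2.22 ± 0.22, adjusted p = 1.6e-07), and the groups did not overlap.

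Constitutive endothelial markers did not move in 1 direction across the injured libraries. Their summed level was 888 to 942 CPM in Control, 1361 CPM in IRI 6 h library 1 and 715 to 832 CPM in libraries 2 to 4. None of 15 was called in either direction, and the median was -0.10, near that of all genes; with the 8 libraries alone 0 higher and 1 lower were called. Pecam1, the junctional protein CD31, read 83.1, 82.4, 85.5 and 79.8 CPM in Control and 161, 80.6, 65.6 and 66.2 CPM in IRI 6 h (0.18 ± 0.22, adjusted p = 0.68), where library 1 was above and the other 3 at or below Control. Genes of endothelial activation and coagulation differed from that: 12 of 15 rose and 1 fell (median 1.505). Without library 1, 6 rose and 1 fell (median 1.25).

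The adhesion molecule Vcam1 read 15.7, 12.7, 12.7 and 15.2 CPM in Control and 51.1, 202, 98.9 and 186 CPM in IRI 6 h (3.25 ± 0.36, adjusted p = 7.5e-07), so library 1 was the lowest injured library. The urokinase receptor Plaur rose by 3.17 ± 0.36, adjusted p = 1.0e-06 (2.54 without library 1). P-selectin, Selp, which tethers leukocytes, was called with all libraries (4.49 ± 1.51, adjusted p = 0.040) but was not called without any 1 Control library or IRI 6 h library 1, 2 or 3 (adjusted p = 0.056 to 0.19; 3.37 without IRI 6 h library 1). Angpt2, an antagonist of the vessel-stabilising receptor Tie2, was the member that fell (-1.61 ± 0.43, adjusted p = 0.0093).

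Of 11 podocyte markers 3 rose and none fell (median 0.22), with 1 higher without library 1. Nes, an intermediate filament, rose by 0.97 ± 0.25, adjusted p = 0.0068. Cdkn1c (1.03 ± 0.33, adjusted p = 0.030) was not called without any 1 Control library or IRI 6 h library 1 (adjusted p = 0.063 to 0.12; 0.85 without IRI 6 h library 1), and Synpo (0.75 ± 0.22, adjusted p = 0.020) was not called without Control library 1 or 4 or IRI 6 h library 1 (adjusted p = 0.051 to 0.17; 0.41 without IRI 6 h library 1). Among 12 genes of renin cells, mesangium and smooth muscle 5 rose (2 without library 1), led by the contractile actin Acta2, which read 69.3, 65.9, 65.4 and 69.4 CPM in Control and 714, 210.1, 208 and 148 CPM in IRI 6 h (2.24 ± 0.34, adjusted p = 4.5e-05; 1.48 without library 1). Renin itself, Ren1, was not called (0.11 ± 0.26, adjusted p = 0.84).

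Tubular injury and repair genes rose almost as a block, 22 of 24 with none lower (median 2.52); without library 1, 21 rose (median 2.19). Sox9, the transcription factor of repairing tubule cells, read 1.97, 1.34, 1.52 and 1.12 CPM in Control and 41.6, 31.9, 25.7 and 25.1 CPM in IRI 6 h (4.37 ± 0.30, adjusted p = 1.2e-09). Timp1, a metalloproteinase inhibitor, read 4.33, 2.68, 1.11 and 5.24 CPM and 211, 65.6, 81.7 and 61.6 CPM (4.97 ± 0.45, adjusted p = 7.7e-08; 4.38 without library 1). Krt20, a keratin of stressed epithelium, read 12.8, 5.28, 4.98 and 14.9 CPM and 619, 127, 107 and 97.3 CPM (4.64 ± 0.60, adjusted p = 6.1e-06; 3.54 without library 1). The injured libraries lay above all Control libraries for each, and Sox9 varied least among them. Itgb6 (0.05, adjusted p = 0.94) and Prom1 (0.31, adjusted p = 0.20) were the 2 members not called.

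Immediate early transcription factors, which answer stimuli within minutes, rose in 17 of 27 cases and fell in none (median 1.29). Egr2 read 0.510, 0.845, 0.208 and 0.629 CPM in Control and 14.5, 8.56, 12.2 and 11.1 CPM in IRI 6 h (4.37 ± 0.94, adjusted p = 0.0017), and the AP-1 subunit Fosl1 went from 0.0637, 0.141, 0 and 0 CPM to 17.0, 6.16, 3.51 and 4.29 CPM (6.94 ± 1.66, adjusted p = 0.0041; 7.80 without Control library 2 and 6.20 without IRI 6 h library 1). Fos read 1.85, 11.8, 9.83 and 2.24 CPM in Control, where libraries 2 and 3 were well above 1 and 4, and 28.9, 13.4, 22.8 and 17.8 CPM in IRI 6 h (1.69 ± 0.46, adjusted p = 0.010). The nuclear receptor Nr4a1 was not called (0.34 ± 0.51, adjusted p = 0.74; -0.48 without library 1).

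Genes of NF-kB signalling and its feedback, the inflammatory switch downstream of danger receptors, rose in 11 of 22 cases with none lower (median 1.09). The subunits Nfkb2 (1.70 ± 0.18, adjusted p = 3.1e-07) and Relb (1.81 ± 0.30, adjusted p = 0.00012), both of the noncanonical branch, and the coregulators Bcl3 (2.28 ± 0.39, adjusted p = 0.00016) and Nfkbiz (1.72 ± 0.28, adjusted p = 8.2e-05) led them. Nfkb2 read 24.5, 22.4, 22.1 and 22.2 CPM in Control and 77.5, 82.7, 66.6 and 70.6 CPM in IRI 6 h, with little spread in either group.

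Cytokines that signal through gp130 and STAT3 rose together with their downstream genes. Of 19 genes 12 rose and 2 fell (median 1.26). Among the ligands, Lif read 1.02, 0.141, 0.208 and 1.05 CPM in Control and 40.5, 11.9, 9.72 and 13.3 CPM in IRI 6 h (4.93 ± 0.62, adjusted p = 4.3e-06; 4.24 without library 1), and Il11 rose by 4.84 ± 1.07, adjusted p = 0.0020 (3.27 without library 1). The shared receptor gp130, Il6st, had a mean of 270.0 ± 24.4 CPM (SD, n = 4) in Control and 270.1 ± 13.9 CPM (SD, n = 4) in IRI 6 h (0.00 ± 0.18, adjusted p = 1.000). The 2 members that fell are receptors, Lifr (-0.96 ± 0.19, adjusted p = 0.00066) and Il11ra1 (-0.61 ± 0.14, adjusted p = 0.0029). Socs3, the feedback inhibitor that STAT3 induces, read 8.03, 4.01, 4.36 and 5.03 CPM and 118, 59.2, 57.8 and 49.7 CPM (3.72 ± 0.31, adjusted p = 1.9e-08).

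Chemokines rose in 10 of 19 cases and fell in 1 (median 1.46). The neutrophil attractant Cxcl2 read 0.637, 0.352, 0 and 0.279 CPM in Control and 136, 12.1, 10.7 and 14.8 CPM in IRI 6 h (7.03 ± 1.05, adjusted p = 3.5e-05; 5.24 without library 1). The related Cxcl1 read 1.66, 1.34, 0.484 and 1.96 CPM and 5.63, 2.39, 3.58 and 3.66 CPM (1.46 ± 0.70, adjusted p = 0.17), so it was not called. Ccl20, which attracts cells carrying CCR6, read 0.255, 0.211, 0.0692 and 0.559 CPM and 1.35, 5.05, 7.38 and 5.21 CPM (4.07 ± 0.63, adjusted p = 5.9e-05), with library 1 the lowest injured library. Cxcl12, which holds cells in their niche, was the member that fell (-1.07 ± 0.27, adjusted p = 0.0063).

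Acute phase and complement genes rose in 15 of 25 cases and fell in 1 (median 1.88). Saa3 read 1.08, 0.704, 0.277 and 0.838 CPM in Control and 84.1, 11.6, 12.5 and 12.4 CPM in IRI 6 h (5.34 ± 0.93, adjusted p = 0.00021; 4.04 without library 1), the protease inhibitor Serpina3n rose by 4.49 ± 0.73, adjusted p = 9.0e-05 (3.31) and the fibrinogen chain Fgb by 3.94 ± 0.77, adjusted p = 0.00062 (3.50). Pigr, the epithelial transporter of secreted immunoglobulin, was the member that fell (-2.03 ± 0.24, adjusted p = 1.7e-06). Of the interferon response genes 5 of 30 were higher (3 without library 1) and none lower (median 0.31).

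Stress programmes did not move alike. The integrated stress response, the ATF4 arm that answers amino acid shortage and damage, had 16 of 27 genes higher and 2 lower (median 0.77); without library 1, 9 rose and 1 fell. Mthfd2, a mitochondrial folate enzyme, read 5.22, 4.79, 4.36 and 4.89 CPM in Control and 37.1, 36.2, 33.3 and 36.6 CPM in IRI 6 h (2.89 ± 0.32, adjusted p = 6.8e-07), with the 4 injured libraries close together. The cystine importer Slc7a11 rose by 4.63 ± 0.83, adjusted p = 0.00029 (3.77 without library 1) and Trib3 by 2.70 ± 0.45, adjusted p = 0.00012 (2.09). The unfolded protein response of the endoplasmic reticulum had 3 of 21 higher and 2 lower, the latter 1 without library 1 (median 0.08), so its share was near the background.

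Heat shock genes had 3 of 20 higher and 2 lower (median -0.06; 1 and 1 without library 1), and the members differed. The inducible chaperone Hspa1a read 16.4, 21.3, 24.0 and 19.98 CPM in Control and 30.0, 16.7, 13.96 and 14.2 CPM in IRI 6 h (-0.13 ± 0.37, adjusted p = 0.88), while the small heat shock protein Hspb1 read 38.9, 36.8, 36.4 and 40.2 CPM and 609, 199, 123 and 149 CPM (2.83 ± 0.39, adjusted p = 1.6e-05; 2.05 without library 1). The Hspa1a groups overlapped and the Hspb1 groups did not. Hspb8 (0.98 ± 0.34, adjusted p = 0.043) and Cryab (0.65 ± 0.21, adjusted p = 0.030), 2 further small heat shock proteins, were called with all libraries. Hspb8 was not called without any 1 Control library or IRI 6 h library 1, 2 or 3 (adjusted p = 0.065 to 0.20; 0.73 without IRI 6 h library 1), and Cryab was not called without Control library 2, 3 or 4 or IRI 6 h library 1 (adjusted p = 0.057 to 0.24; 0.31 without IRI 6 h library 1). The cochaperone Dnaja1 fell (-0.94 ± 0.18, adjusted p = 0.00042).

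NRF2 targets, which supply glutathione and NADPH, rose in 14 of 23 cases and fell in 1 (median 0.92), with 14 and 2 without library 1. Haem oxygenase, Hmox1, read 31.6, 33.5, 39.7 and 39.0 CPM in Control and 559, 143, 114 and 108 CPM in IRI 6 h (2.68 ± 0.40, adjusted p = 3.3e-05; 1.76 without library 1). Srxn1, which restores peroxiredoxins, rose by 2.14 ± 0.42, adjusted p = 0.00072 (1.05 without library 1). The glutathione synthesis genes Gclc (-0.59, adjusted p = 0.15) and Gclm (-0.24, adjusted p = 0.36) were not called. Of 19 genes of haem and iron 10 rose and 1 fell, and the ferritin heavy chain Fth1 read 5776, 5981, 5989.7 and 5681 CPM and 9909.5, 9764, 10779.6 and 9815 CPM (0.78 ± 0.12, adjusted p = 6.0e-05), one of the 5 largest gains in mean CPM.

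Genes of p53 had 11 of 25 higher and 2 lower (median 0.58; 6 and 1 without library 1), led by the cell cycle inhibitor Cdkn1a, which read 21.8, 11.3, 21.7 and 20.1 CPM in Control and 382, 95.9, 83.6 and 73.5 CPM in IRI 6 h (3.08 ± 0.43, adjusted p = 1.9e-05; 2.17 without library 1). Among 24 cell death genes 7 rose and none fell (median 0.47). Ripk3, a kinase of necroptosis, read 0.892, 1.27, 1.25 and 0.559 CPM and 14.3, 7.39, 6.21 and 7.04 CPM (3.12 ± 0.38, adjusted p = 2.6e-06), and Mlkl, the pore-forming effector that it activates, rose by 2.70 ± 0.42, adjusted p = 6.5e-05. Gpx4, the guardian against ferroptosis, was not called (-0.10 ± 0.12, adjusted p = 0.66).

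Hypoxia-response genes did not move as a list: 5 of 23 rose and 3 fell (median -0.12), with 3 and 4 without library 1. Hilpda, a lipid droplet gene, rose (2.83 ± 0.60, adjusted p = 0.0014; 1.48 without library 1), and the vasodilator gene Adm was called (1.70 ± 0.52, adjusted p = 0.024) but was not called without Control library 1, 2 or 4 or IRI 6 h library 1 (adjusted p = 0.058 to 0.34; 0.81 without IRI 6 h library 1). Vegfa, the growth factor of vessels, was called lower (-0.49 ± 0.17, adjusted p = 0.043) but was not called without any 1 Control library or IRI 6 h library 2, 3 or 4 (adjusted p = 0.070 to 0.12).

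Cell division genes rose. All 29 tested mitosis genes were called higher, with a median log2 fold change of 3.72. Of 30 genes of DNA replication and the step from G1 to S, 21 rose with none lower (median 1.94). Among those called, 8 mitosis and 4 replication genes lay below the low-count filter (1.20 CPM at the median depth) in at least 1 Control library. Such genes are tested because they are high elsewhere, so their calls describe them and support nothing. Plk1, a kinase of mitotic entry, read 3.69, 2.18, 2.35 and 3.14 CPM in Control and 19.1, 68.6, 65.3 and 64.1 CPM in IRI 6 h (4.25 ± 0.51, adjusted p = 2.7e-06). Cdc20, which activates the anaphase-promoting complex, read 8.85, 4.999, 4.57 and 5.80 CPM and 27.7, 133, 131 and 119 CPM (4.08 ± 0.48, adjusted p = 1.8e-06), and Ube2c, that complex's ubiquitin-conjugating enzyme, read 5.29, 3.24, 3.25 and 4.47 CPM and 23.7, 83.2, 83.6 and 80.9 CPM (4.06 ± 0.44, adjusted p = 5.8e-07). Library 1 was the lowest of the injured libraries for all 3 genes and still above every Control library.

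IRI 6 h library 1, the highest of the injured libraries in the median of the injury list, was the lowest of them here. Summed over the mitosis list, library 1 held 446 CPM, the other 3 injured libraries 1586 to 1625 CPM and Control 73.0 to 142 CPM. For the list of DNA replication the sums were 1317 CPM, 1603 to 1773 CPM and 634 to 656 CPM. Without library 1 all 29 mitosis genes and 24 of the 30 replication genes rose (medians 4.02 and 2.10). Uhrf1, which copies DNA methylation to the new strand, read 4.71, 3.87, 2.21 and 4.33 CPM in Control and 46.6, 89.5, 66.7 and 65.2 CPM in IRI 6 h (4.14 ± 0.40, adjusted p = 1.3e-07). The G1 cyclin Ccnd1 was not called (0.24 ± 0.25, adjusted p = 0.60).

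**Figure D3:**
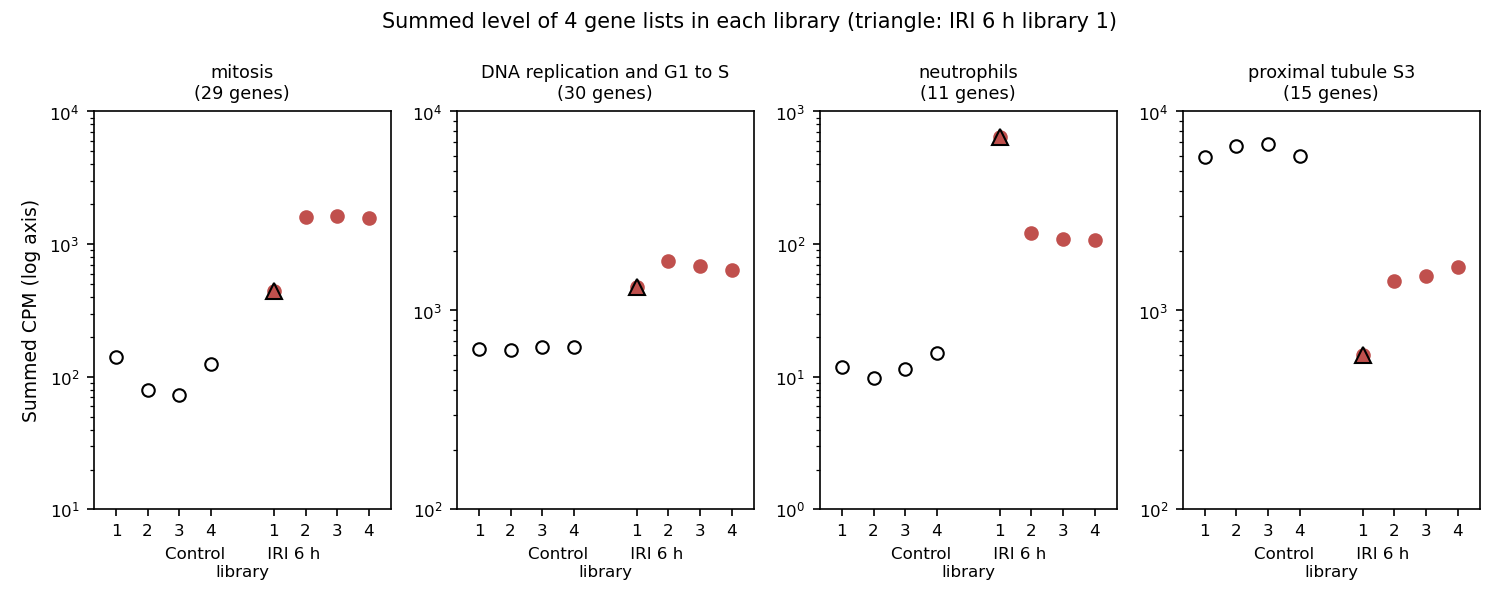
Summed level of 4 gene lists in each library, in CPM on a log axis: mitosis (29 genes), DNA replication and G1 to S (30), neutrophils (11) and proximal tubule S3 (15). In IRI 6 h library 1 mitosis stands at 446 CPM against 1586 to 1625 CPM in libraries 2 to 4, and neutrophils at 645 CPM against 107 to 122 CPM.

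Promoters of mitosis genes often carry a cell cycle homology region, TTTGAA or its reverse complement TTCAAA, and CCAAT boxes (ATTGG on the other strand), which the DREAM complex and NF-Y bind. The promoters below, 120 bases before the gene start from RefSeq (build GRCm38.p6, whereas the count tables used GRCm39), are those of the 4 mitosis genes with the largest change, shown to let these letters be read, in capitals. They lie at chr7:122159315-122159434 (plus strand) for Plk1, chr2:127831860-127831979 (minus strand) for Bub1, chr4:118437344-118437463 (minus strand) for Cdc20 and chr2:164769809-164769928 (plus strand) for Ube2c.
Plk1: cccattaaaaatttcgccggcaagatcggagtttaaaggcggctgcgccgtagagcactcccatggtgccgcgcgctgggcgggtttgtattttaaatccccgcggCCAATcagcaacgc
Bub1: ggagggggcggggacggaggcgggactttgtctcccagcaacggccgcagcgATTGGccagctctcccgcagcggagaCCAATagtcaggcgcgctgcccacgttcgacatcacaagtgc
Cdc20: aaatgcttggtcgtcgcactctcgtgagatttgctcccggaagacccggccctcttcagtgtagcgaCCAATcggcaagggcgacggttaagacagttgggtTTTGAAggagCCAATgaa
Ube2c: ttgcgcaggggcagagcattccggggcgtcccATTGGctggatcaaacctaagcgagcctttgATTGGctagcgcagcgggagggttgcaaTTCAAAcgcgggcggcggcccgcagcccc

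RefSeq promoters were at hand for 23 of the 29 mitosis genes. In these windows, on either strand, TTTGAA stood in 7 (30.4%) and CCAAT in 17 (73.9%), and both in 6 (26.1%). In the promoters of 11839 of the 16653 genes tested the shares were 4.21%, 25% and 1.23%, and over all 27025 RefSeq promoters 7.24%, 22.1% and 1.55%. The replication list, with 22 promoters of 30 genes, had 9.09%, 63.6% and 4.55%. The 2 motifs were counted apart and can share a letter, and a match describes the letters only, not a bound factor. Cdc20 and Ube2c hold both motifs, at 18 and 29 bases before the start for TTTGAA, while Plk1 and Bub1 hold CCAAT alone.

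Of 19 neutrophil markers 8 had too few counts to be tested, and of the 11 tested 9 were called higher and none lower. Of these 11, 10 lay below the level of the low-count filter (1.20 CPM at the median depth) in at least 1 Control library, 8 of the 9 called among them. Such a gene is tested because it is high elsewhere, so the count describes these markers and supports nothing. The same holds for 9 of the 17 monocyte genes called below and for 6 of the 10 chemokine genes called above. It holds for 8 of the 29 mitosis, 4 of the 21 replication and 3 of the 15 acute phase and complement genes called higher. Among vasoactive and prostaglandin genes it holds for 3 of 4, and in every other list for at most 2 genes called higher. S100a8, a subunit of calprotectin, read 0.764, 0.211, 0.830 and 1.47 CPM in Control and 135, 16.2, 19.5 and 14.1 CPM in IRI 6 h (5.80 ± 0.79, adjusted p = 1.3e-05; 4.32 without library 1). Fpr1, the formyl peptide receptor, had 0 counts in all 4 Control libraries and 6.23, 1.01, 0.658 and 0.629 CPM in IRI 6 h; against a floor of 3 counts over the Control group it was at least 37.7-fold higher (at least 15.3-fold without library 1). Summed over the list, library 1 held 645 CPM, the others 107 to 122 CPM and Control 9.86 to 15.2 CPM. Without library 1, 8 of the markers were called higher.

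Monocyte and recruited macrophage genes rose in 17 of 21 cases (median 2.37; 14 without library 1). Chil3, a chitinase-like protein of recruited cells, read 0.892, 0.493, 1.18 and 1.19 CPM in Control and 80.9, 17.8, 23.7 and 16.0 CPM in IRI 6 h (5.19 ± 0.54, adjusted p = 3.4e-07; 4.34 without library 1), whereas Ccr2, the receptor that brings monocytes in, was not called (0.52 ± 0.65, adjusted p = 0.68). Resident macrophage and dendritic cell genes split, with 4 of 16 higher and 2 lower (3 and 1 without library 1): the complement gene C1qb rose (1.48 ± 0.30, adjusted p = 0.00086), and the antigen-presenting H2-Eb1 (-1.35 ± 0.32, adjusted p = 0.0038) fell; the growth factor receptor Csf1r was called lower (-0.98 ± 0.27, adjusted p = 0.013) but was not called without IRI 6 h library 1 (adjusted p = 0.059; -0.81 without IRI 6 h library 1). None of 8 lymphocyte genes was called, and 13 others were too low. The platelet chemokines Pf4 (2.91 ± 0.56, adjusted p = 0.00060) and Ppbp (2.50 ± 0.61, adjusted p = 0.0045; 1.75 without library 1) rose, while no haemoglobin gene was called (Hba-a1 0.25, adjusted p = 0.72).

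**Figure D4:**
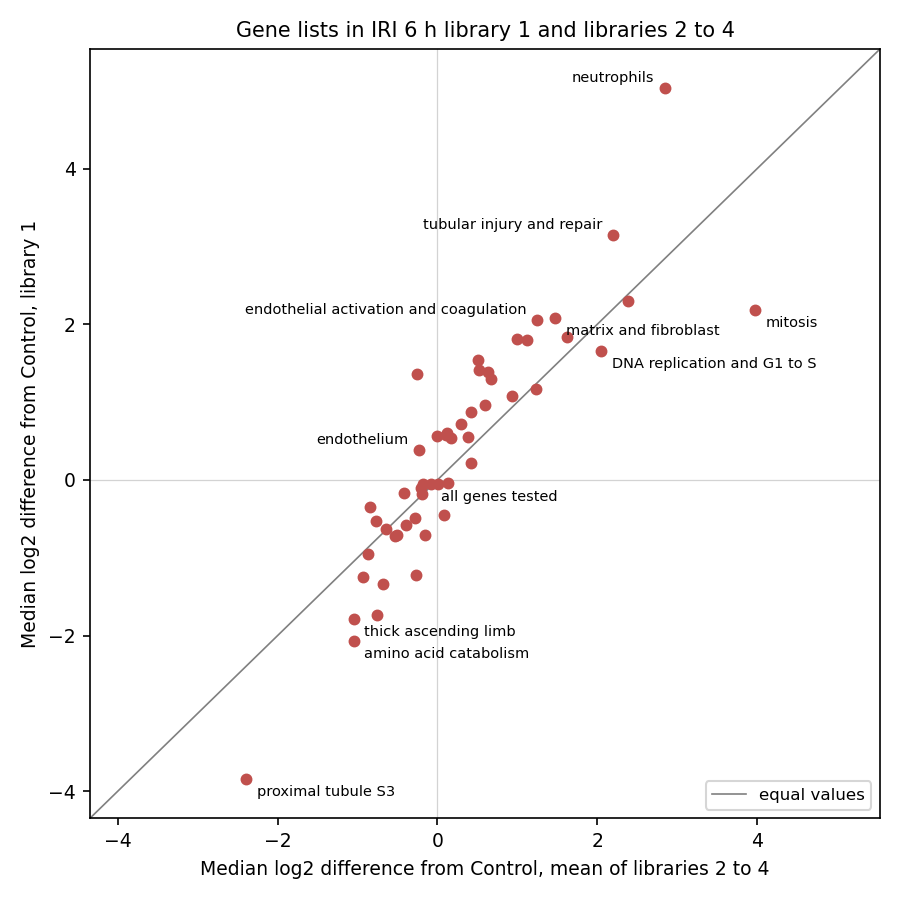
Median log2 difference from the Control mean of each gene list, in IRI 6 h library 1 (vertical axis) against the mean of libraries 2 to 4 (horizontal axis), 1 point a list, with the line of equal values. Neutrophils lie above the line and mitosis below it, and the lists of the proximal tubule S3, the thick ascending limb and amino acid catabolism lie below 0 on both axes.

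Matrix and fibroblast genes rose in 20 of 26 cases, with or without library 1 (median 1.58). Col1a1 read 90.1, 72.7, 73.8 and 90.0 CPM in Control and 429, 631, 619.7 and 503 CPM in IRI 6 h (2.74 ± 0.20, adjusted p = 2.7e-09), and Col3a1 rose by 2.71 ± 0.22, adjusted p = 1.1e-08; library 1 lay within the other injured libraries for Col3a1 and below them for Col1a1. The matrix-degrading Mmp3 rose by 3.76 ± 0.92, adjusted p = 0.0049 (3.09 without library 1). Lum (0.19, adjusted p = 0.92) and Dcn (-0.02, adjusted p = 0.98), proteoglycans of resting fibroblasts, were not called. Targets of YAP and SRF, which respond to cell stretch and actin, rose in 13 of 25 cases with none lower, led by Ankrd1 (2.90 ± 0.27, adjusted p = 9.8e-08) and the actin crosslinker Flna (1.98 ± 0.24, adjusted p = 3.2e-06).

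Circadian genes had 8 of 20 lower and 2 higher (median -0.57); without library 1, 5 were lower. The output gene Dbp read 81.6, 138, 111 and 87.5 CPM in Control and 20.3, 13.2, 31.8 and 28.4 CPM in IRI 6 h (-2.16 ± 0.34, adjusted p = 6.2e-05), and Nr1d1, a repressor of the core loop, fell by 1.62 (SE 0.33, adjusted p = 0.00099), while Nfil3, which represses the targets of Dbp, rose (2.24 ± 0.54, adjusted p = 0.0042). The core activator Arntl was not called (0.63 ± 0.64, adjusted p = 0.58). The time of day of sampling is not given in the labels. Of 15 glucocorticoid-responsive genes 2 were higher (1 without library 1) and 3 lower. Their median was 0.34, and -0.26 without library 1, so its sign turned on that library. The receptor Nr3c1 fell (-0.87 ± 0.25, adjusted p = 0.014). Among the 15 genes of tissue next to the kidney 5 fell, 4 of them adrenal (Hsd3b1, Cyp11a1, Cyp11b1 and Star). Control libraries 1 and 4 held most of this RNA, as given above for Hsd3b1, though Control libraries 2 and 3 also read above IRI 6 h for it. Without Control libraries 1 and 4, and so with fewer samples, 1 of 15 fell and none of these 4 was called. Cyp11b1 was not called without Control library 1 or IRI 6 h library 2, 3 or 4 (adjusted p = 0.056 to 0.064). Cyp11a1 had -6.70 (-6.10 without Control library 1 and -7.32 without IRI 6 h library 1) and Hsd3b1 -6.79 (-6.15 without Control library 1). Star read 81.5, 8.80, 5.12 and 76.2 CPM in Control and 6.98, 3.99, 3.58 and 3.60 CPM in IRI 6 h.

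IRI 24 h stands in another joined block of columns of the same table. Against it 28.8% of the genes were called, 2484 (14.9%) higher and 2316 (13.9%) lower at 24 h. Without the names left out, the 24 h libraries held total counts of 6696400 to 13517430, against 13313097 to 17533712 at 6 h. Mitochondrial rRNA made up 1.58% to 2.01% of these counts at 24 h, against 0.239% to 0.501% at 6 h. With the names left out added back, the totals were 9938664 to 17498324 at 24 h and 14998119 to 20079792 at 6 h. The part of these gaps in the differences was not tested. Of the mitosis genes 28 of 29 were lower at 24 h and none higher (median -2.93); Plk1 had 5.98 ± 2.76 CPM (SD, n = 4) at 24 h (-3.19 ± 0.49, adjusted p = 3.2e-05). Matrix genes were lower in 15 of 26 cases and higher in none (in 1 without IRI 6 h library 1), with Col3a1 at 139 ± 45.3 CPM (-2.69 ± 0.22, adjusted p = 4.2e-09). Thick ascending limb genes were lower at 24 h than at 6 h in 10 of 15 cases and higher in 1, among them Egf (-3.30 ± 0.29, adjusted p = 1.6e-08) and Umod (-2.54 ± 0.21, adjusted p = 5.1e-09). The neutrophil attractant Cxcl1, not called at 6 h, was higher at 24 h, at 132 ± 36.8 CPM (5.12 ± 0.66, adjusted p = 3.6e-06), and so was Hspa1a (2.91 ± 0.39, adjusted p = 6.3e-06). The water channel Aqp4 was back at 64.6 ± 14.6 CPM (2.22 ± 0.25, adjusted p = 5.2e-07).

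The AKI group carries the same labelled treatment and the same source, 6 h after reperfusion, as IRI 6 h. The groups nevertheless differed in 33.8% of 16047 genes, with 2646 (16.5%) higher and 2785 (17.4%) lower in IRI 6 h. Among the AKI libraries, library 1 stood apart as well, and without it 4211 of 16402 genes were higher and 3922 lower. In IRI 6 h mitosis genes were higher in 27 of 29 cases (median 3.02): Plk1 read 1.06, 4.37, 3.73 and 3.16 CPM in AKI, near its Control level (4.11 ± 0.46, adjusted p = 7.7e-05). Matrix genes were higher in 21 of 24 (median 2.32), and Col3a1 read 62.6, 67.6, 46.4 and 57.8 CPM in AKI (3.91 ± 0.17, adjusted p = 7.7e-08). Endothelial genes were higher in 11 of 15 and neutrophil genes in 9 of 13 (5 without IRI 6 h library 1), with none lower. As above, a gene at a very low level in both Control and AKI is tested here because it is high in IRI 6 h. The neutrophil count therefore describes these markers and supports nothing. How many members of the other lists this covers was not counted.

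Stress genes went the other way. Integrated stress response genes were lower in IRI 6 h in 12 of 26 cases and higher in none. Without AKI library 1, 15 of 27 were lower and 3 higher. NRF2 targets were lower in 9 of 23 and higher in none, and 17 were lower and 1 higher without AKI library 1. Heat shock genes were lower in 12 of 20 and higher in 2 (1 without IRI 6 h library 1). Cxcl1 read 98.8, 30.6, 42.1 and 27.9 CPM in AKI (-3.74 ± 0.47, adjusted p = 0.00014), and Hmox1 read 892, 551, 1047 and 449.8 CPM (-1.71 ± 0.48, adjusted p = 0.015; -2.60, adjusted p = 8.4e-05 without IRI 6 h library 1). Hspa1a read 823, 12.6, 25.6 and 20.3 CPM in AKI, where library 1 alone was high (-3.59 ± 1.12, adjusted p = 0.027; -0.09, adjusted p = 0.81 without it). Injury and repair genes had 4 of 22 higher and 2 lower in IRI 6 h, where 16.5% and 17.4% of all genes were. The counts were 5 and 5 without AKI library 1, where 4211 and 3922 of 16402 genes were, and 3 and 6 without IRI 6 h library 1. These counts are not read as a trait of the injury genes. For 11 names, Cd44 and Vim among them, AKI and IRI 6 h held the same count in all 4 libraries, and for Slc5a2 in 3; these 12 were left out of this comparison. To which group these counts belong is not known. The 12 names stayed in IRI 6 h against Control, where without them 20 of 22 injury genes and 18 of 24 matrix genes rose, and 9 of 16 genes of the S1 and S2 segments fell.

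**Figure D5:**
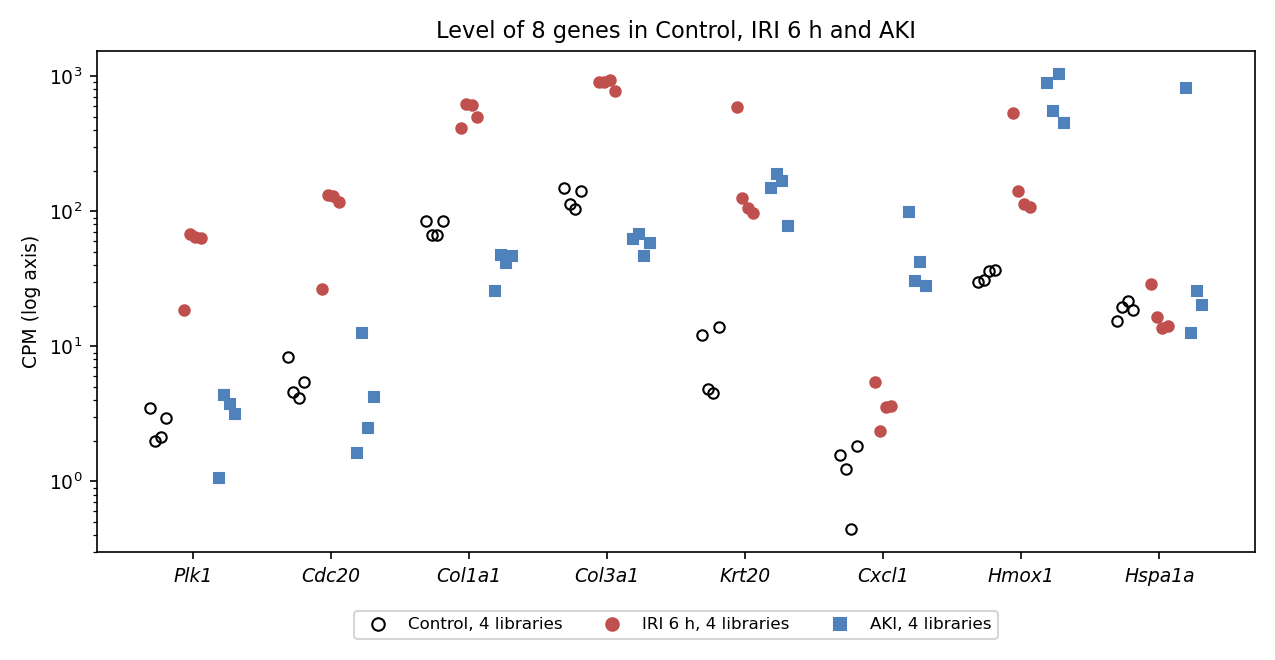
Level of 8 named genes in each library of Control, IRI 6 h and AKI, in CPM on a log axis, from the fit that joined the 3 groups. Plk1, Cdc20, Col1a1 and Col3a1 are higher in all 4 IRI 6 h libraries than in all 4 AKI libraries, and Cxcl1 is lower.

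In the sham arm, which shares no library with the comparison above, kidneys taken 24 h after an operation without ischaemia (by title and source; their treatment field reads IRI) were set against unoperated ones, and 20.8% of 17781 genes were called (1369 higher and 2334 lower). The times differ, so the values stand side by side only. Of the 1618 genes higher at IRI 6 h and tested in both arms, 245 were also higher after sham surgery (15.1% of the former, 18.7% of the latter), where 8.28% of all genes were, and 212 were lower (13.1%), where 14.5% of all genes were. Of the 1411 genes lower at IRI 6 h, 619 were also lower after sham surgery (43.9% and 27.0%), where 14.5% of all genes were, and 102 were higher (7.23%), where 8.28% were. The citrate cycle fell after sham surgery in 23 of 25 genes (median -0.77), the respiratory chain in 32 of 32 and amino acid catabolism in 24 of 32, and the gluconeogenesis gene Fbp1 had -2.02 ± 0.24, adjusted p = 1.8e-05. Hpd (-0.20 ± 0.14, adjusted p = 0.38) and Aadat (0.06 ± 0.11, adjusted p = 0.78), both much lower at IRI 6 h, were not called there. Against 7.7% of all genes higher after sham surgery, injury genes rose in 6 of 26 and mitosis genes in 10 of 30 cases. The ferritin gene Fth1 fell (-1.58 ± 0.14, adjusted p = 1.8e-06) and Hmox1 fell (-0.84 ± 0.20, adjusted p = 0.0060), opposite in direction to IRI 6 h.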

How the data were processed

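The deposited files are 3 tables of whole-number read counts per gene name, 1 for each arm of the study. Per the submitters' processing notes the authors used HTSeq, DESeq2 and the build GRCm39 (mm39); the aligner is not named in these sources. The values carry no normalization, and every column named a sample or a group (0 columns were unused). Sham columns could be matched to their group but not to a single sample. Of the names, 85 were left out: 74 with other Control counts in the temporal and therapy tables, 6 found in 1 table, 4 that share the Control counts of another name and 1 repeated. A further 12 were left out against AKI, an alternative chosen after seeing the data.

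Counts were tested with edgeR 4.0.16 (R 4.3.3): genes with low counts were removed with filterByExpr, libraries scaled by TMM, and the quasi-likelihood test fitted to all 5 temporal groups, which share 1 estimate of spread. IRI 6 h against AKI was fitted with Control as a further group, and sham with its own 8 libraries. Genes with a Benjamini-Hochberg adjusted p under 0.05 over all genes tested are called; the standard error is the log2 fold change divided by the square root of F. Low values of log2 CPM carry a prior count of 2. A gene at 0 in Control was set at 3 counts for all 4 libraries together to bound its fold, a bound for counting error alone. The steps were tested on simulated data with 200 changed genes. Alternatives were DESeq2 1.42.0, its size factors, no filter (at least 1 count), 2 groups only, the replicate block and leaving out each library.

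The text names the 12 largest rises and falls (genes averaging 3 or more in log2 CPM, groups not overlapping), the 5 largest gains and losses in CPM, and for each of 52 gene lists up to 4 called and 3 other members, with a selection shown; some genes are not reported here. Members that make up a count of 5 or fewer, and the further examples in the AKI, 24 h and sham comparisons, were chosen after their values were seen. The comparison and the lists were chosen with earlier results of these data known. Promoters are from RefSeq, matched by symbol.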

Additional observations from a re-analysis of the deposited data

Results flagged for a closer look

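Among 130 groups of 4 libraries examined (the genes and lists whose values are given by library), 33 held 1 library far from the rest. The measure is that library's distance to its nearest neighbour as a share of the group's whole range. Chance alone would mark about 1 in 20 groups if the values were independent and normally distributed. The groups here come from the same 8 libraries, some share genes, and the genes were selected. Their number is therefore not set against that rate. IRI 6 h library 1 was the distant one in 27, and it was the highest of its group in 22 of these. It was high for Acta2 (0.890), Cdkn1a (0.928), Chil3 (0.881), Cxcl2 (0.968), Fpr1 (0.932), Hmox1 (0.921), Hspa1a (0.8295), Hspb1 (0.844), Krt20 (0.944), Lif (0.883) and Pecam1 (0.844). It was also high for Ptgs2 (0.910), Ripk3 (0.856), S100a8 (0.956), Saa3 (0.988), Slc16a3 (0.898), Slc22a7 (0.892), Socs3 (0.861), Star (0.881), Timp1 (0.866), the summed neutrophil level (0.973) and the summed podocyte level (0.842). It was low for Cdc20 (0.870), Plk1 (0.908), Ube2c (0.955), the summed lymphocyte level (0.947) and the summed mitosis level (0.968). The only other injured library marked was library 3, for Fth1 (0.857). In Control, library 2 was below the other 3 for Cdkn1a (0.841); library 3 was above the other 3 for Egf (0.851). Likewise library 1 was above the other 3 for Nfkb2 (0.897), library 4 was below the other 3 for Pvalb (0.868) and library 2 was above the other 3 for the summed platelet and red cell level (0.955). The part of library 1 in the results was not tested beyond the values given without it, and lymphocyte RNA was low in it while neutrophil RNA was high.

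Among the genes given with sham values or by library, 3 were called in opposite directions at IRI 6 h and after sham surgery at 24 h. In both arms their groups of libraries did not overlap, and the difference was not tested. Other named genes called higher at IRI 6 h were called lower after sham surgery, such as Srxn1 (-0.48), Fbp2 (-0.77) and Pck1 (-0.81). Each of these lost its sham call without some single sham library. Aqp4, lower at IRI 6 h, was higher after sham surgery (log2 fold change 1.25), while Fth1 (-1.58) and Hmox1 (-0.84), higher at IRI 6 h, were lower.

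Of the 79 names left out of the fits that stand in the temporal table, 25 had counts in every IRI 6 h library above every Control library and 24 had them below. These counts are not interpreted as expression of the named genes, since the Control counts under the same names differ between tables or could not be assigned.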

How the results depend on the processing

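The count of genes called at IRI 6 h against Control changed most with the groups that entered the fit. Leaving out the later groups also changed the filter (15504 genes tested in place of 16653) and the scaling. With all 5 temporal groups it was 3141, and with Control and IRI 6 h alone it was 7443 (3980 higher, 3463 lower), where the common biological coefficient of variation was 0.195 in place of 0.378. Several settings were added after the data were seen. With those 8 libraries alone the counts were 8065 (4225 and 3840) by DESeq2, 6591 (3515 and 3076) with the replicate number as a block, and 8871 (4575 and 4296) without IRI 6 h library 1. Nr4a1, not called with all groups, was called lower in that last setting (-0.39). Without Control libraries 1 and 4 the counts were 1773 (1023 and 750). Leaving out 1 library at a time gave 2288 to 2904 genes, 1280 to 1649 higher and 1008 to 1255 lower. DESeq2 (3831), its size factors in edgeR (3152), no filter on low counts (2721), the replicate block (2927) and keeping the names whose Control counts differ (3237) stayed within 1.5 times. The replicate numbers are shared labels only: deviations of Control and IRI 6 h libraries of the same number correlated at -0.01 to 0.03, and not every library correlated best with its own number. Of the 150 genes named, DESeq2 size factors changed no call, the block lost 5, and no setting with all 5 groups turned the direction of a called gene. Against IRI 24 h the 2 groups alone gave 8302 genes (4088 higher, 4214 lower); leaving out 1 library gave 3763 to 4834. Against AKI the 2 groups alone gave 3377 (1697 and 1680), and leaving out 1 library gave 4106 to 8133 (2090 to 4211 higher, 2016 to 3922 lower); without AKI library 1 it was 8133. In the sham arm leaving out 1 library gave 2748 to 3551 genes (855 to 1243 higher, 1893 to 2333 lower), 855 without 1 of the sham control libraries. With the number in the sham titles as a replicate block it gave 3251 (1072 higher, 2179 lower); same-numbered sham libraries deviated together at -0.113 to -0.0468, so the number is a shared label only. The list counts without the 12 names that AKI shares, given above, were also added after the data were seen. The causes of these shifts were not tested, except that fewer samples enter where libraries are left out. Counts were simulated with the library depths, mean levels and spread of the fit to all 5 temporal groups. No library was made to stand apart as IRI 6 h library 1 does. There 41% of 2-fold and 69% of 4-fold changes were called and 1 unchanged gene was. These rates do not describe the spread of Control and IRI 6 h alone, and a gene not called can still have changed.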

Other observations

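Groups of genes not described above changed in part. The vasoactive and prostaglandin list had 4 of 19 genes higher and 2 lower (3 and 1 without library 1; median -0.01). Cyclooxygenase 2, Ptgs2, which starts prostaglandin synthesis, read 0.828, 1.55, 0.761 and 1.26 CPM in Control and 43.4, 7.81, 4.31 and 4.46 CPM in IRI 6 h (3.76 ± 0.82, adjusted p = 0.0018; 2.32 without library 1), and the vasoconstrictor endothelin, Edn1, rose by 1.78 ± 0.32, adjusted p = 0.00034. The constitutive Ptgs1 was not called (-0.01 ± 0.18, adjusted p = 0.99). Of 14 EGF family ligands and receptors 2 rose and 2 fell, or 1 and 2 without library 1 (median -0.17). The ligand Nrg1 read 9.62, 9.93, 10.4 and 10.97 CPM in Control and 40.1, 39.6, 28.1 and 32.0 CPM in IRI 6 h (1.77 ± 0.26, adjusted p = 2.8e-05), while Erbb3, a receptor that binds it, fell (-0.94 ± 0.18, adjusted p = 0.00044). The main receptor Egfr was not called (-0.08 ± 0.24, adjusted p = 0.89).

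Ribosome biogenesis had 8 of 26 genes higher and none lower (median 0.43), with 6 higher without library 1. In the fit of the 8 libraries alone 24 of 26 were called higher and 1 lower, where 25.7% and 22.3% of all genes were. Nop56, a core protein of the particles that methylate ribosomal RNA, read 25.1, 22.2, 23.3 and 24.0 CPM in Control and 56.3, 52.0, 53.6 and 50.8 CPM in IRI 6 h (1.17 ± 0.12, adjusted p = 2.8e-07), so its groups were apart and each was tight. Genes of mitochondrial biogenesis and gap junctions had 2 of 23 higher and 5 lower (median -0.33), and 1 and 2 without library 1. The mitochondrial deacetylase Sirt3 fell (-1.18 ± 0.20, adjusted p = 0.00020), Pprc1, a relative of PGC-1alpha, rose (1.26 ± 0.28, adjusted p = 0.0022), and Ppargc1a itself was not called (0.35 ± 0.22, adjusted p = 0.34). In the list of haem and iron, haptoglobin, Hp, which binds free haemoglobin, rose (3.29 ± 0.65, adjusted p = 0.00076; 2.50 without library 1), and so did the metalloreductase Steap1 (2.63 ± 0.40, adjusted p = 5.1e-05; 1.99 without library 1).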
